A study of Sebastes mystinus with 44 samples.

Results

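The comparison set 3 juvenile blue rockfish (Sebastes mystinus) kept for 24 h in seawater of lowered oxygen (group DO) against 3 kept for 24 h in seawater of lowered pH and raised pCO2 (group pH), 6 of the 44 white muscle libraries of the series. Members were taken by the exposure and time in each fish's label. Lowered oxygen was made by bubbling nitrogen and lowered pH by bubbling carbon dioxide, in flow-through aquaria held at 11.4 to 12.3 °C, with 10 fish in each of 8 aquaria per the labels. DO fish are Mys34, Mys35 and Mys36, and pH fish are Mys30, Mys31 and Mys32. The other 24 h groups are 4 control fish and 4 fish of a group named cross, a word the labels do not define and which is taken here to mean combined exposure. Oxygen and pH levels, and the aquarium that held each fish, are not stated. Tank and exposure therefore cannot be told apart, and p-values treat fish as independent.

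White muscle makes up most of the body of a bony fish, powers bursts of swimming and draws much of its energy from glycolysis. Low oxygen is known to act on fish tissues largely through hypoxia-inducible factors, which shift metabolism towards anaerobic energy supply. High pCO2 acidifies body fluids, and fish compensate mainly by exchange of ions at the gill. A direct comparison of the exposures asks whether muscle RNA tells the stressors apart after a day, a question that comparisons with control answer only indirectly. The features are assembled transcripts with identifiers that the files pair with no gene name, so gene functions, pathways and markers of muscle or of other cell types could not be examined. In such tissue samples, fewer cells of a type and less RNA per cell cannot be told apart.

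Muscle of DO and pH fish at 24 h was not separated by any feature in the main edgeR quasi-likelihood test (low-count filter, all 24 h groups). Of 26357 features tested, 0 (0%) passed an adjusted p of 0.05 in either direction, the lowest value being 0.588. Before adjustment, 656 features (2.49%) had a p under 0.05, of which 342 (1.3%) were higher and 314 (1.19%) lower in DO fish, beside the 1318 that a uniform spread of p-values gives. This number and its split moved with the fit: it was 2196 of 34070 features (1570 higher, 626 lower) with all 44 libraries and 4116 of 125098 (2986 higher, 1130 lower) with no low-count filter. Leaving out DO fish Mys34 gave 745 higher and 362 lower, and leaving out DO fish Mys36 gave 800 and 329. At the adjusted threshold edgeR called 7 features with no low-count filter, 1 with only the DO and pH fish and 1 without pH fish Mys31. The other edgeR fits called 0. DESeq2 called 1 feature (740 at an unadjusted p under 0.05), and limma voom called 0 (842). In absolute terms the log2 fold change had a median of 0.33, and 2670 features (10.1%) differed more than 2-fold, 1789 higher and 881 lower in DO fish.

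Complete separation of the 3 DO from the 3 pH values was seen in few features. Where groups do not differ, 3 against 3 untied values separate completely, in one direction or the other, with a probability of 0.1. All DO values lay above all pH values in 1186 features (4.5% of those tested) and below them in 1031 (3.91%), with values in CPM (counts scaled to a library of fixed size, with TMM factors). The 95% interval of the log2 fold change had a median half-width of 1.12. It lay wholly within a 2-fold change in either direction for 5137 of 26356 features (19.5%). For most features a 2-fold difference was thus not excluded at this number of fish. The unadjusted interval lay wholly beyond a 2-fold change for 17 features higher and 9 lower in DO fish.

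**Figure D1:**
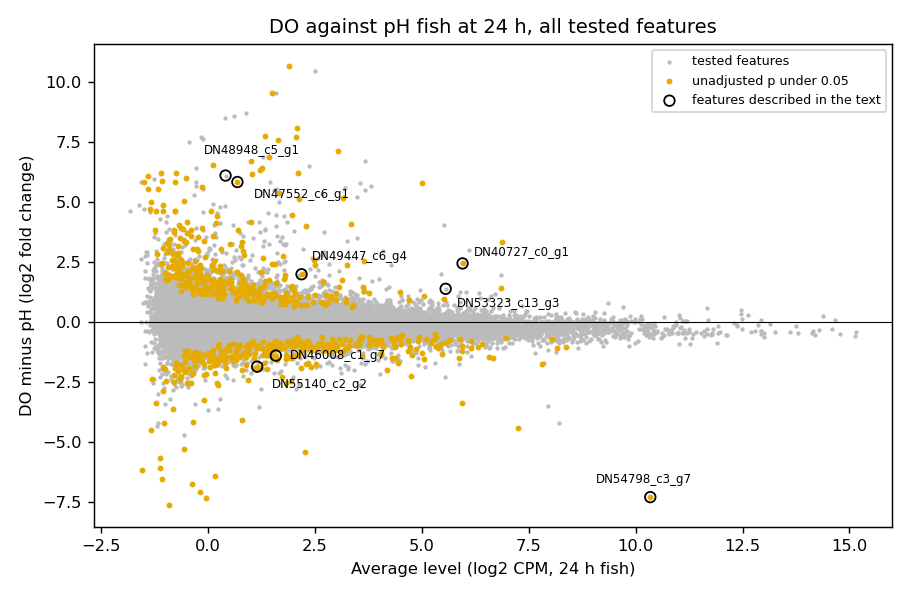
Log2 fold change of DO against pH fish at 24 h (vertical axis) against the average level in log2 CPM over the 24 h fish (horizontal axis), 1 point per tested feature. Of 26357 features, 656 (yellow) had an unadjusted p under 0.05 and 0 passed after adjustment; circles mark the features described by name.

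The fish of one exposure were on average no more alike than fish of different exposures. The mean Pearson correlation of log2 CPM was 0.914 over the 6 pairs of fish within a group and 0.918 over the 9 pairs between groups, a difference of -0.00412 (two-sided exact permutation p = 0.4, where 3 against 3 fish cannot go below 0.1). Without DO fish Mys35 the means were 0.923 and 0.931, a difference of -0.00817 (two-sided exact permutation p = 0.1, the smallest possible), with fish of different exposures the more alike. DO fish Mys36 correlated at 0.942 with DO fish Mys34 and at 0.941 with pH fish Mys31. The lowest value of all, 0.875, was between DO fish Mys35 and pH fish Mys30. The chi-square statistic per feature ran from 25.4 to 149 in pairs within a group, so no library copied another.

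DO fish Mys35 stood apart from the other 5. It had 76543 features with a count, beside 44580 to 54942 in the others, and its 100 most abundant features took 42.1% of its counts, beside 49.8% to 64.5%. Total counts ran from 14309945 to 19464650 over the 6 libraries. Without TMM factors, 3 counts thus corresponded to 0.154 to 0.21 CPM, counting error only. Those factors ran from 0.66 in pH fish Mys30 to 1.72 in DO fish Mys35, and CPM values elsewhere in the text include them. In fish Mys35, 225 of the tested features (0.854%) were at least 4-fold above the highest of the other 5 fish, against 7 to 47 in each other fish. In pH fish Mys30, 126 features (0.478%) were at least 4-fold below the lowest of the others, the most of any fish. Group means of detected features were 58190 ± 15900 in DO and 49620 ± 5190 in pH fish (SD, n = 3 each, exact permutation p = 0.6). Without fish Mys35 the DO mean was 49020 ± 1580 (SD, n = 2), a difference of -600 from pH fish. Its exact permutation p was 0.9, where 2 against 3 fish cannot go below 0.1.

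**Figure D2:**
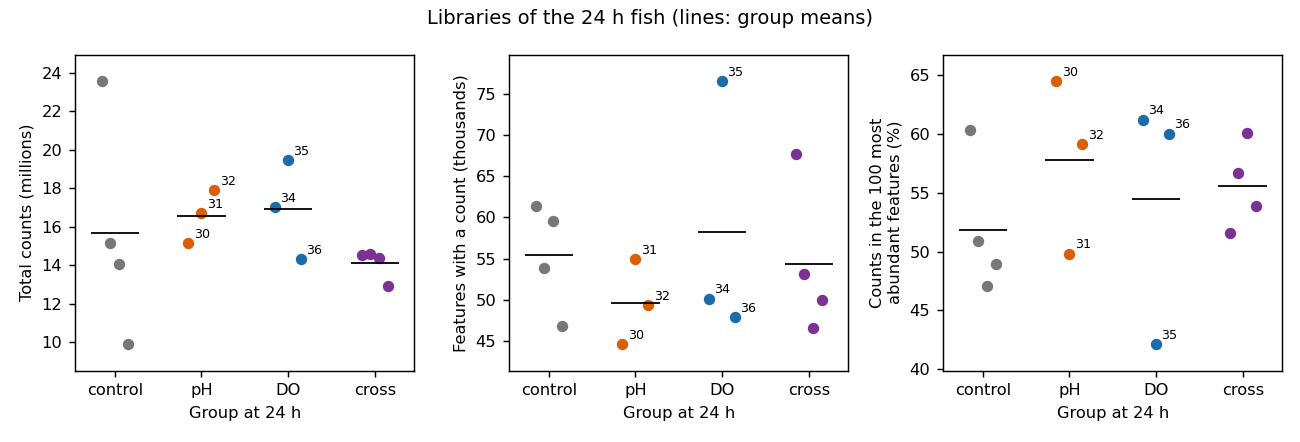
Total counts, number of features with a count and percentage of counts in the 100 most abundant features for each 24 h fish, by group, with lines at the group means and fish numbers beside the pH and DO points. DO fish Mys35 has 76543 features with a count and 42.1% of counts in its 100 most abundant features.

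The fold changes leaned one way among abundant features and the other way among rare ones. By medians, this lean rested largely on fish Mys35 in the rarest and the most abundant class, and less so from 10 to 100 CPM. Features with a mean of 100 CPM or more over the 24 h fish, the RNAs that dominate muscle, had a median log2 fold change of -0.239, and 44 of 919 lay wholly below the pH values while 4 lay wholly above. Features under 1 CPM had a median of 0.211, with 485 of 7365 wholly above and 185 wholly below. The classes between had medians of 0.0419 (1 to 10 CPM) and -0.125 (10 to 100 CPM). From 10 to 100 CPM, 75 of 4693 features lay wholly above and 291 wholly below. In that class 12 features higher and 70 lower in DO fish had an unadjusted p under 0.05 in edgeR, beside 29 and 24 without fish Mys35. From the rarest to the most abundant class, 9.1%, 8.47%, 7.8% and 5.22% of features separated completely in either direction. Over all tested features 4.5% lay wholly above and 3.91% wholly below. Separation by class without fish Mys35 was not counted. Without fish Mys35 the medians of the 4 classes, from rare to abundant, were -0.0374, -0.0379, -0.0987 and -0.0272. Without any other of the 6 fish the abundant class stayed between -0.41 and -0.149. By single fish, the shift of the abundant class from the median of the 6 fish was -0.626 log2 units in Mys35 and between -0.129 and 0.165 in the others. With fish Mys35 left out and the filter reapplied, 521 of 27592 features had an unadjusted p under 0.05 in edgeR. Of these, 222 were higher and 299 lower in DO fish, and 0 passed after adjustment. How many of the 656 features were among them was not counted.

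**Figure D3:**
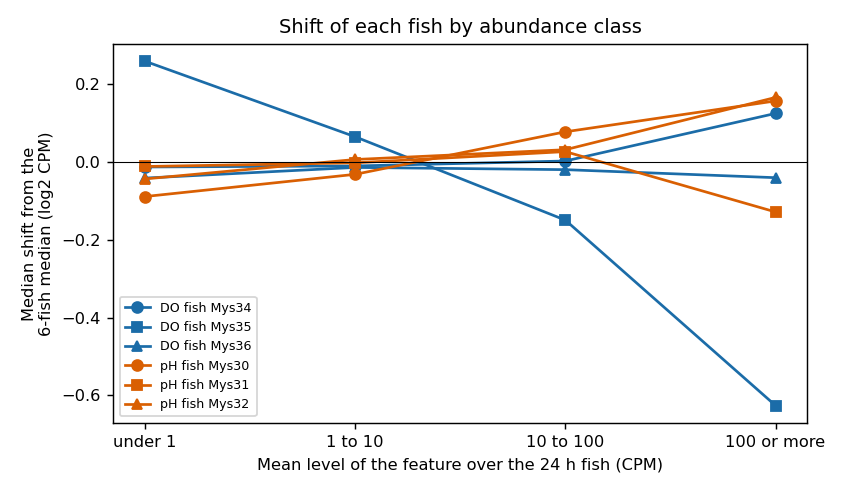
Median shift of each fish from the 6-fish median (log2 CPM, vertical axis) in 4 classes of feature by mean CPM over the 24 h fish (horizontal axis), 1 line per fish. DO fish Mys35 runs from 0.258 in the rarest to -0.626 in the most abundant class, while the other 5 fish stay between -0.129 and 0.165.

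Precision also differed by level. The median half-width of the 95% interval was 1.65 log2 units under 1 CPM, 1.02 from 1 to 10 CPM, 0.766 from 10 to 100 CPM and 0.823 at 100 CPM or more. Of the abundant class, 348 of 919 features (37.9%) had an interval within a 2-fold change, against 16 of 7365 (0.217%) in the rarest class. The share with an unadjusted p under 0.05 was 3.2% in the rarest class and 1.09% in the most abundant. The biological coefficient of variation over the 24 h groups was 47.8%. Median within-group standard deviations were 0.462 log2 units in DO fish and 0.482 in pH fish, from 3 fish each. Without Mys35 the DO value was 0.303, from 2 fish, which is not directly comparable with values from 3.

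Among features chosen by the smallest unadjusted p with separated groups and an average log2 CPM of at least 1, the pair higher in DO fish had the following values. TRINITY_DN40727_c0_g1 stood at 125, 87.8 and 60 CPM in DO fish Mys34, Mys35 and Mys36 and at 5.62, 15.6 and 28.4 CPM in pH fish Mys30, Mys31 and Mys32. The lowest DO fish was thus above the highest pH fish, while control fish (35.8 to 169 CPM) and cross fish (24.1 to 91 CPM) overlapped the DO range. Control fish spread from below the lowest to above the highest DO fish, and 1 cross fish lay inside the pH range. The log2 fold change was 2.45 (SE 0.66, 95% interval 1.04 to 3.87, edgeR unadjusted p = 0.00217, adjusted p = 1). Against control the log2 fold change was 0.12 for DO and -2.34 for pH fish, comparisons that share the control fish. TRINITY_DN49447_c6_g4 stood at 3.45, 6.53 and 14.5 CPM in the DO fish and at 2.11, 1.82 and 2.18 CPM in the pH fish. The DO fish were spread widely and the pH fish narrowly, with controls (3.16 to 6.62 CPM) above every pH fish and cross fish (1.24 to 3.96 CPM) on both sides. Its log2 fold change was 2.00 (SE 0.52, 95% interval 0.9 to 3.1, edgeR adjusted p = 1), and 1.29 without DO fish Mys36.

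The pair lower in DO fish was of low abundance. TRINITY_DN46008_c1_g7 stood at 1.26, 1.91 and 1.05 CPM in the DO fish and at 4.32, 3.44 and 3.56 CPM in the pH fish. DO fish Mys35 had 63 counts of it, beside 43, 66 and 49 in pH fish Mys30, Mys31 and Mys32. Scaled by total counts alone, fish Mys35 would lie above Mys30 and Mys32. The separation of its groups thus depended on the TMM factors (1.72 in Mys35). All 4 control fish (2.47 to 3.04 CPM) lay in the gap between the exposures, and all 4 cross fish (2.2 to 4.48 CPM) lay above every DO fish. The log2 fold change was -1.39 (SE 0.35, 95% interval -2.13 to -0.65, edgeR unadjusted p = 0.00111, adjusted p = 1), and -1.7 without DO fish Mys35. TRINITY_DN55140_c2_g2 stood at 0.707, 1.15 and 0.727 CPM in the DO fish and at 4.82, 1.82 and 3.05 CPM in the pH fish. Control fish (1.42 to 2.53 CPM) and cross fish (1.49 to 3.16 CPM) lay above every DO fish. Its log2 fold change was -1.85 (SE 0.48, 95% interval -2.86 to -0.84, edgeR unadjusted p = 0.00137, adjusted p = 1). These 4 features rested on 56 to 5221 counts over the DO fish and 86 to 747 over the pH fish. Tested features of the same assembly cluster (the DN number) did not all share their sign. Counting the named feature itself, the same sign was seen in 2 of 5 for TRINITY_DN46008_c1_g7 and 1 of 2 for TRINITY_DN55140_c2_g2. For TRINITY_DN49447_c6_g4 it was 2 of 3, and TRINITY_DN40727_c0_g1 was alone in its cluster.

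The remaining features were picked with their values known, 1 for its rank and the others for a call made in 1 of the analyses. TRINITY_DN47552_c6_g1 had the smallest p of all features at 24 h, and it was also called when no low-count filter was applied (edgeR adjusted p = 4.24e-05). It had 29, 84 and 6 counts in DO fish Mys34, Mys35 and Mys36 and 0, 0 and 1 counts in pH fish Mys30, Mys31 and Mys32. All 4 control fish (26 to 47 counts) and all 4 cross fish (11 to 37 counts) carried it, so at 24 h pH fish were the group in which it was nearly absent. The DO to pH ratio was 88 (95% interval 15.5 to 3510, exact binomial, counting error only), with an edgeR unadjusted p of 2.23e-05 and an adjusted p of 0.588 (DESeq2 0.0614). Near absence was not particular to pH fish over the series. At 12 h control fish had 0, 0, 39 and 2 counts, DO fish 1, 0, 3 and 14, and pH fish 4, 44, 9 and 3. It was under 0.3 CPM in 16 of the 44 fish and at 0 counts in 7.

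TRINITY_DN54798_c3_g7 showed the widest gap among the abundant features described here. It stood at 32.5, 11.5 and 25.2 CPM in the 3 DO fish and at 4010, 1970 and 4860 CPM in the 3 pH fish, which is -7.29 on the log2 scale (SE 2.41, 95% interval -12.52 to -2.07). The edgeR test gave an unadjusted p of 0.01 and an adjusted p of 1 with all 24 h groups in the fit, and an adjusted p of 0.0396 with only DO and pH fish, the 1 call of that fit. The other groups of the day split into the same levels: control fish stood at 47.3, 20.7, 2120 and 17.7 CPM and cross fish at 2190, 2830, 28.3 and 15.3 CPM. Over all 44 fish, on a common scale, 16 were above 1000 CPM, 27 below 100 CPM and 1 between. High levels occurred in 2 of 4 DO and 2 of 4 pH fish at 12 h, and in 0 of 4 DO and 1 of 2 pH fish at 2 weeks. High and low levels thus stood side by side within 8 of the 12 groups, whereas at 24 h all pH fish were high and all DO fish low.

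The other single calls were of a feature with low counts and of a feature called only with 1 fish left out. TRINITY_DN48948_c5_g1, the feature that DESeq2 called (adjusted p = 0.0172), had 17, 4 and 3 counts in DO fish and 0 in all 3 pH fish, a ratio of 5.92 against a floor of 3 counts over the group, with an exact binomial lower 95% limit of 4.45 (counting error only). It also stood at 0 in 3 of 4 control fish, and at 172 counts in control fish Mys25, and edgeR gave an unadjusted p of 0.184. TRINITY_DN53323_c13_g3 passed the edgeR test when pH fish Mys31 was left out (adjusted p = 0.0434) and had an adjusted p of 1 with it. It stood at 1.00, 62.5 and 1.82 CPM in pH fish Mys30, Mys31 and Mys32 and at 86.9, 55.9 and 29.8 CPM in the DO fish, so that fish Mys31 lay within the DO range. Levels under 2 CPM were not confined to pH fish: DO fish Mys24 had 1.14 CPM and cross fish Mys7065 0.838 CPM at 12 h, on the scale of all 44 libraries.

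**Figure D4:**
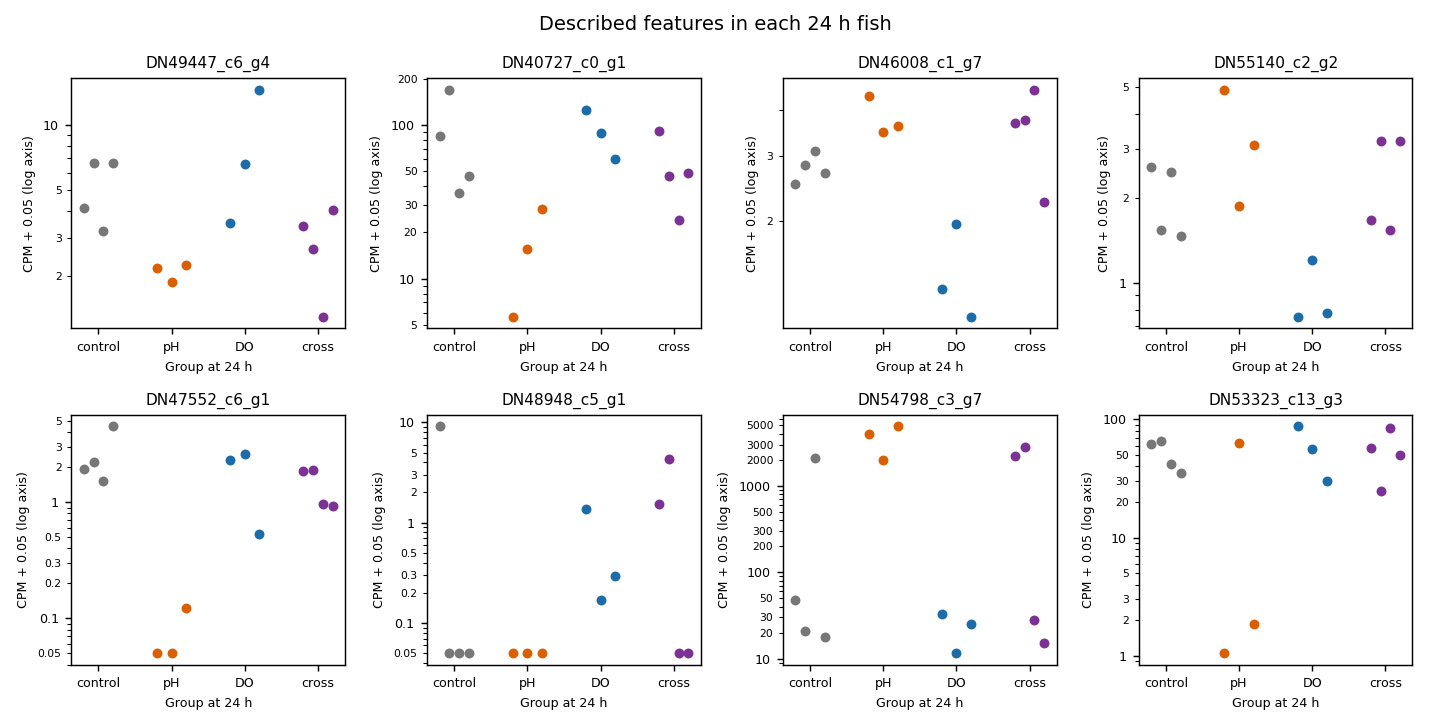
Level of each described feature in every 24 h fish (CPM plus 0.05, log axis), by group, 1 point per fish. The top row holds the features named by rule, with pH and DO fish apart; TRINITY_DN54798_c3_g7 stands at 1970 CPM or more in all pH fish and at 32.5 CPM or less in all DO fish, with control and cross fish at both levels.

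Control and cross fish were placed beside the exposures for the 656 features with an unadjusted p under 0.05. Those features were chosen for extreme DO and pH values, so any further group falls between them more often by the choice itself. Nearness to DO or pH can be affected by the same choice. Shares over all tested features are therefore not a like-for-like reference, and no conclusion was drawn. The control mean lay between the DO and pH means in 250 of the 342 features higher in DO fish and in 248 of the 314 lower, against 28.1% of all tested features. By distance on a log2 scale, the cross mean was nearer to DO than to pH in 285 of the 342 features higher in DO fish (83.3%) and in 189 of the 314 lower (60.2%), beside 61.9% over all tested features. For the control mean the shares were 63.2% and 57.6%, beside 52.8%.

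Other fish at 12 h and 2 weeks gave the same contrast at other times, with 4 against 4 fish and 4 DO against 2 pH fish. Of the 656 features, 346 (52.7%) had the same sign at 12 h as at 24 h, beside 54.1% of all features tested at 24 h, and 314 (47.9%) at 2 weeks, beside 49.1%. An unadjusted p under 0.05 with the same sign was reached by 28 at 12 h and 26 at 2 weeks, and with the opposite sign by 22 and 42. The earlier and the later contrast each had 0 features past the adjusted threshold in edgeR, out of 34070 tested in 1 fit of all libraries. The p before adjustment was under 0.05 in 1827 features (5.36%) at 12 h, 1.84% higher and 3.52% lower in DO fish, and in 2928 (8.59%) at 2 weeks, 4.96% higher and 3.63% lower. In the same fit the 24 h contrast had 2196 such features (1570 higher and 626 lower in DO fish), where the fit of the 24 h fish alone had 656. No other tool was run for the contrasts at 12 h and 2 weeks.

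A test of whether the DO to pH difference changed between the 3 times also called 0 of 34070 features in edgeR, the lowest adjusted p being 0.549, while 2519 (7.39%) had a p under 0.05 before adjustment. Among the features named by rule it was lowest for TRINITY_DN55140_c2_g2 (edgeR adjusted p = 0.549). In that fit its log2 fold change was 0.41 (SE 0.33) at 12 h, -1.86 at 24 h and 1.27 (SE 0.49) at 2 weeks. At 2 weeks its pH fish stood at 0.84 and 0.541 CPM, from 6 and 7 counts. Its DO fish then stood at 1.48, 1.87, 1.98 and 1.17 CPM, the reverse of the order at 24 h. The 2 week contrast of this feature did not pass the threshold (edgeR adjusted p = 0.478). TRINITY_DN46008_c1_g7 had a value of -0.71 on the log2 scale at 12 h (SE 0.32, adjusted p = 0.921 in edgeR), with overlapping groups of 1.4 to 4.22 CPM in DO and 2.75 to 6.34 CPM in pH fish, and stood at 0.28 (SE 0.4) at 2 weeks. TRINITY_DN40727_c0_g1 stood at 27.2, 692, 34.8 and 78.9 CPM in DO fish and at 197, 191, 324 and 304 CPM in pH fish at 12 h, so 3 of 4 DO fish lay below every pH fish there. TRINITY_DN49447_c6_g4 had log2 fold changes of -1.29 (SE 0.69) at 12 h and 0.73 (SE 1) at 2 weeks, neither past the threshold (edgeR adjusted p = 0.921 and 0.884).

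**Figure D5:**
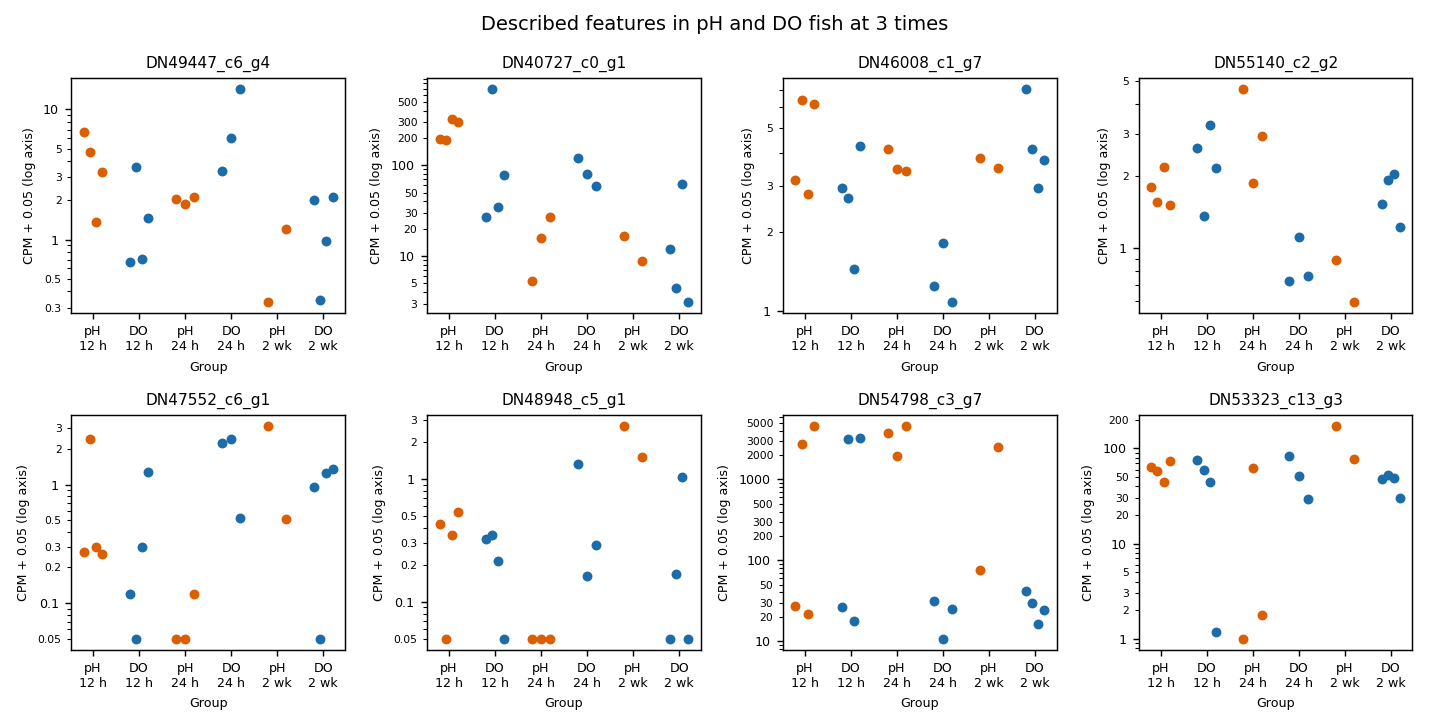
Level of each described feature in pH and DO fish at 12 h, 24 h and 2 weeks (CPM plus 0.05 scaled over all 44 libraries, log axis), 1 point per fish. TRINITY_DN55140_c2_g2 is lower in DO fish at 24 h and higher in DO fish at 2 weeks, neither past the adjusted threshold. At 2 weeks its pH fish stand at 0.84 and 0.541 CPM, from 6 and 7 counts.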

How the data were processed

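The authors deposited expected counts, which are estimates of the reads from each feature and are not normalized, in a table for each time. Each table has 239549 features with Trinity-style identifiers, and 9.88% of values in the 24 h table (9.6% over all tables) do not equal a whole number exactly. Reads can be split between near-identical assembled copies. The submitters' processing notes name RSEM 1.3.0, Bowtie, edgeR, Trimmomatic 0.36 and FastQC 0.11.5, with no roles. Libraries kept strand and went through 15 PCR cycles, in 2 randomized sets of 24, per the labels' protocols; the set of each fish is not stated. No column lacked a sample.

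Counts were rounded and tested in R 4.3.3 with edgeR 4.0.16 (quasi-likelihood, robust, TMM, filterByExpr with minimum count 10 and total 15), two-sided, Benjamini-Hochberg adjusted over all features, threshold 0.05. All 4 groups of 24 h entered the fit for their shared spread; times were compared in 1 fit of all 44 libraries. Log2 CPM used a prior count of 2. Distances to group means used log2(CPM + 0.1). Named features were up to 2 higher and 2 lower in DO fish, with the smallest unadjusted p, non-overlapping groups and average log2 CPM of at least 1; the others were chosen after their values were seen. The members, lists and tests were chosen with earlier results of these data known. Gene lists and cell type markers were not run, since no names were given. The edgeR script was tested on simulated data. Alternatives were RLE size factors, other filters, DESeq2 1.42.0, sva 3.50.0 with 1 surrogate variable, voom with sample weights (limma 3.58.1), other sets of libraries, sums over assembly clusters, and each fish left out.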

Additional observations from a re-analysis of the deposited data

Results flagged for a closer look

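Samples far from their own group were looked for in 40 sets of 4 fish. These were the described features in the control and cross groups of 24 h and in the DO and pH groups of other times. Such a sample was found in 6 sets. The rule flags about 1 set in 20 by chance if values are normally distributed, which CPM with zeros or split levels are not. Some features were also picked for their values, so the 6 were not read as an excess. The groups of 3 fish were not tested in this way. For TRINITY_DN54798_c3_g7, 1 control fish at 24 h stood at 2120 CPM, far above the others. TRINITY_DN48948_c5_g1 had 1 control fish at 9.05 CPM at 24 h with the others at 0, and 1 DO fish at 0.992 CPM at 2 weeks. TRINITY_DN40727_c0_g1 had 1 DO fish at 692 CPM at 12 h and 1 at 62.1 CPM at 2 weeks. TRINITY_DN47552_c6_g1 had 1 pH fish at 2.37 CPM at 12 h. Each is a single fish high above the rest of its group.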

How the results depend on the processing

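The count of called features (0) was 7 with no low-count filter, all higher in DO fish, 1 with DESeq2, 1 with only the DO and pH fish, and 0 to 1 with single fish left out (1 without pH fish Mys31). The cause was not tested. The 7 included TRINITY_DN47552_c6_g1 and TRINITY_DN40727_c0_g1, both at an adjusted p of 4.24e-05 in edgeR, where their adjusted p over all alternatives reached 1. Of the others, named after their values were seen, TRINITY_DN53870_c2_g1 (1, 271 and 0 counts in DO fish) and TRINITY_DN44467_c3_g6 (1, 103 and 1) rest on DO fish Mys35, and TRINITY_DN50431_c0_g1 (118, 1 and 47 in DO, 1, 3 and 1 in pH fish) has overlapping groups. TRINITY_DN53176_c4_g7 (83, 85 and 109 in DO, 12, 16 and 8 in pH fish) had all DO counts above all pH counts (edgeR adjusted p = 0.00847). So did TRINITY_DN43559_c0_g1 (39, 24 and 31 against 2, 0 and 1, edgeR adjusted p = 0.00783). These adjusted p-values belong to the fit with no filter, whereas the lowest of any feature with the filter was 0.588. For TRINITY_DN40727_c0_g1 the log2 fold change was 2.45 in both fits. Its edgeR unadjusted p was 0.00217 with the filter and 7.48e-10 with none. The 656 features at an unadjusted p under 0.05 became 4116 with no filter (125098 tested), 355 at a minimum count of 30 (16960 tested), 2196 in the fit of all 44 libraries (34070 tested), 311 summed over assembly clusters (13107 tested), and 471 to 1248 with single fish left out. The lowest was without pH fish Mys30, the highest without pH fish Mys31, and without DO fish Mys34 and Mys36 it was 1107 and 1129. Features with separated groups fell to 704 above and 620 below at a minimum count of 30, where fewer were tested. Without DO fish Mys35 they were 2334 and 2553 of 27592 tested, from 2 against 3 fish. Where groups do not differ, 2 against 3 untied values separate completely with a probability of 0.2, beside 0.1 for 3 against 3. The higher counts were therefore not read as a clearer group difference. Without fish Mys35, a choice made after seeing the data, the DO minus pH difference reversed to -918000 total counts, -600 detected features and 2.82 percentage points in the 100 most abundant features. Log2 fold changes of the described features kept their sign under the alternatives that tested them; that of TRINITY_DN53323_c13_g3 ran from 0.82 to 5.31, of TRINITY_DN47552_c6_g1 from 4.49 to 7.88 and of TRINITY_DN48948_c5_g1 from 3.48 to 19.62. RLE size factors, voom and the surrogate variable called 0, and no alternative run called a dependence on time. No paired analysis was possible because fish numbers are not shared between groups. Most 2-fold changes are below what 3 fish per group resolve, given the interval widths.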
